A study of Homo sapiens with 12 samples.

Results

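The genes followed here are those of the small heat shock protein HSP27 and its p38 signalling arm, together with the main cytosolic heat shock chaperones and their transcription factor. They were taken as the rows of the count table whose symbol is HSPB1, HSPA1A, HSPA1B, HSPA8, DNAJB1, HSPH1, HSP90AA1, HSF1, MAPK14 or MAPKAPK2, which gave 10 of the 45478 genes. mRNA was sequenced as 12 libraries of cultured human clear cell renal cell carcinoma (ccRCC) cells, in 4 groups of 3. A498 and 786-O are parental cell lines obtained from ATCC. A498-Su was raised from A498 under 2 μM sunitinib and the sunitinib-resistant 786-O culture, written here as resistant 786-O, under 4 μM, both for 4 months or for more than 20 passages. Sunitinib is an inhibitor of receptor tyrosine kinases. Each resistant group is a single selected culture, and no agent is named as a treatment at harvest. The labels of all 12 libraries carry the letters veh, which are not explained and may stand for a vehicle. Whether the replicates are separate cultures is not stated, so that p-values measure the spread between these libraries. The study followed HSP27 and its phosphorylated form by immunoblot and used the p38 inhibitor SB203580. The comparisons below give the transcripts of HSP27 and p38 and of the chaperones around them.

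HSP27, the product of HSPB1, is a small heat shock protein that holds unfolding proteins in a soluble form without using ATP. HSP70 and HSP90 proteins refold or mature their clients with ATP, helped by J proteins and by HSP110, and HSF1 drives the transcription of many of these genes when unfolded proteins accumulate. p38 alpha activates the kinase MAPKAPK2, which phosphorylates HSP27 and thereby changes the size of its oligomers and its action on actin, and transcript levels do not show the phosphorylated form of either protein.

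The total count per library was 20042519 to 47972092. The libraries labelled A498-Su were nearer to resistant 786-O and 786-O than to A498. The median Pearson correlation of log2 values across 19929 genes was 0.982, 0.951 and 0.870. Genes are not independent replicates in such a correlation. HIF1A, a hypoxia-inducible factor subunit, had a mean of 8.79 CPM in the libraries labelled A498-Su and 305 CPM in A498. It had 10.8 CPM in 786-O and 9.19 CPM in resistant 786-O. These libraries are therefore compared with both A498 and 786-O below. The batch labels coincide with the 4 groups, and batch and group cannot be told apart. Replicates varied more in resistant 786-O (median coefficient of variation 7.87%) than in the other groups (2.70% to 3.78%), and resistant 786-O replicate 2 stood apart from replicates 1 and 3. Of 14 markers of renal tubule and renal carcinoma cells, 12 or 13 reached 1 CPM in each group. NDUFA4L2 was under 1 CPM in every group, and CA9 in every group but A498, where it had 1.29 CPM. None of 15 T cell markers reached 1 CPM, with a summed level of 0.186 to 1.21 CPM per library. The summed level of 6 fibroblast markers was 50.7 to 62.2 CPM in A498, 24.6 to 26.6 CPM in the libraries labelled A498-Su, and 6.75 to 7.26 and 10.7 to 11.4 CPM in 786-O and resistant 786-O, mostly COL1A1 in A498 and LUM in the libraries labelled A498-Su. PDGFRB had a mean of 5.49 CPM in the libraries labelled A498-Su and of 0.241, 0.268 and 0.397 CPM in A498, 786-O and resistant 786-O. COL1A2 and COL3A1 had no count in any A498 library, and DCN had none in the libraries labelled A498-Su. Of 5 endothelial markers, only TEK in A498 reached 1 CPM, with a mean of 2.23. The part of these differences in the results below was not tested.

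The promoters of 6 genes are shown because HSF1 acts through heat shock elements, which are alternating TTC and GAA blocks. HSPA1A and HSPA1B are near copies, HSPA8 and HSP90AA1 hold the longest elements found, and HSPB1 and DNAJB1 hold pairs of blocks. The RefSeq promoters used here (GRCh38.p14) were 11 of 8 of the 10 genes, and those of HSF1 and MAPKAPK2 were not analysed here. Each sequence is the 250 bases before the start of transcription, 5′ to 3′ on the strand of the gene. Capitals mark the 3-block element (TTC, GAA and TTC, or on the other strand GAA, TTC and GAA, with 2 bases of any kind between blocks) and the 2-block units TTCNNGAA and GAANNTTC, which read the same on both strands and are also contained in the 3-block element.
HSPB1 (chr7:76302423-76302672, plus strand): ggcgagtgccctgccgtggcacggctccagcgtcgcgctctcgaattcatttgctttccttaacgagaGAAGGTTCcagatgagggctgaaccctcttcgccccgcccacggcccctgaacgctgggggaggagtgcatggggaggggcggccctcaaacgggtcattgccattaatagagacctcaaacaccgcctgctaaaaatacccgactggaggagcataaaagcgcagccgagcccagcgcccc
HSPA1A (chr6:31815293-31815542, plus strand): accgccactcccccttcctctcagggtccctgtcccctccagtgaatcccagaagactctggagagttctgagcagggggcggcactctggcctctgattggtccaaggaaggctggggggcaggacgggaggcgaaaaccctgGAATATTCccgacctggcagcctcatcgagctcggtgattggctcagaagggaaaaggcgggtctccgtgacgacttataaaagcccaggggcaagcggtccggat
HSPA1B (chr6:31827488-31827737, plus strand): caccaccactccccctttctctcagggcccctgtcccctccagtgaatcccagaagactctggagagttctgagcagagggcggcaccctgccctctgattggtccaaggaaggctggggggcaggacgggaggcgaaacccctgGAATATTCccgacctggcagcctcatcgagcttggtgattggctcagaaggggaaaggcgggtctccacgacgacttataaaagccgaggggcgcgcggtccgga
HSPA8 (chr11:123062137-123062386, minus strand): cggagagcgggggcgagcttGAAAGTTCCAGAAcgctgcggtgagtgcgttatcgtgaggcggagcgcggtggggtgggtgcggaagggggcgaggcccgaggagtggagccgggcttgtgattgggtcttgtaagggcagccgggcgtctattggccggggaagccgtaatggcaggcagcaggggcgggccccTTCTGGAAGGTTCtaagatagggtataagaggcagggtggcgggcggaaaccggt
DNAJB1 (chr19:14518398-14518647, minus strand): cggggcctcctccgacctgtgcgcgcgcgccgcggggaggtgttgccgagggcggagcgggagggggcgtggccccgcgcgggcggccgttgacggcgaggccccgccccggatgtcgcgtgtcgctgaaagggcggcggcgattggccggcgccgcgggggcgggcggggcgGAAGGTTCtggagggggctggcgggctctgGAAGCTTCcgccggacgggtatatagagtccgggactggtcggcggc
HSP90AA1 (chr14:102087045-102087294, minus strand): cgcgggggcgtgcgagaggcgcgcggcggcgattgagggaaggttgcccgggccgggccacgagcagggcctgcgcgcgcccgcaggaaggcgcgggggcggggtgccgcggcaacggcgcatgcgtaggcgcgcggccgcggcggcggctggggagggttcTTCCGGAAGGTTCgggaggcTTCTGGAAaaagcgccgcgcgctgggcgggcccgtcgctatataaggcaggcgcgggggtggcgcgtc

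The 3-block element was found 2 times in the HSPA8 promoter, starting 230 and 55 bases before the start of transcription, and once in that of HSP90AA1, 88 bases before it. Among 35116 promoters of the same length, 0.441% hold it. HSPB1, HSPA1A and HSPA1B each have 1 GAANNTTC and the DNAJB1 promoter has 2, where 5.78% of all promoters hold this unit and 6.62% hold TTCNNGAA. None of these motifs was found in this window for HSPH1 or MAPK14, or in the other promoters listed for DNAJB1 and HSP90AA1. A match describes the letters of the window and not binding.

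All 10 genes passed the filter on low counts and were called changed (adjusted p under 0.05) between the libraries labelled A498-Su and A498, with 4 higher and 6 lower, where 72.7% of the 19929 genes tested were called (36.3% higher and 36.4% lower). Between resistant 786-O and 786-O, 8 were called, with 2 higher and 6 lower, where 68.5% of all genes were called (35% higher and 33.5% lower). Against 786-O, 8 of the 10 were called in the libraries labelled A498-Su, all lower, where 63.6% of all genes were called (31.6% higher and 32.1% lower). In these bulk libraries, fewer cells with a transcript and less of it per cell cannot be told apart. The median log2 fold change of the 10 genes was -0.25, -0.24 and -0.39 in these comparisons, where the median of all genes was -0.0041, 0.03 and 0.0029. The median absolute log2 fold change of all genes was 0.61, 0.49 and 0.47. In the libraries labelled A498-Su over A498, only HSPB1 and HSPA1A among the 10 genes changed by more than this median. The 3 libraries of each group did not overlap for 10, 8 and 8 of the genes, where this held for 78.5%, 68.9% and 73.4% of all genes. Scaling to library size alone, in place of the TMM method, moved the median of all genes in resistant over parental 786-O to 0.18 and the share of called genes that were higher from 51.1% to 62.5%, and in the libraries labelled A498-Su over 786-O to 0.15 and from 49.6% to 62.6%. Without resistant 786-O replicate 2, 9 of the 10 genes were called between resistant 786-O and 786-O. Leaving out each of the 12 libraries in turn gave 7 to 9 of them, and 12626 to 14880 of all genes.

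**Figure D1:**
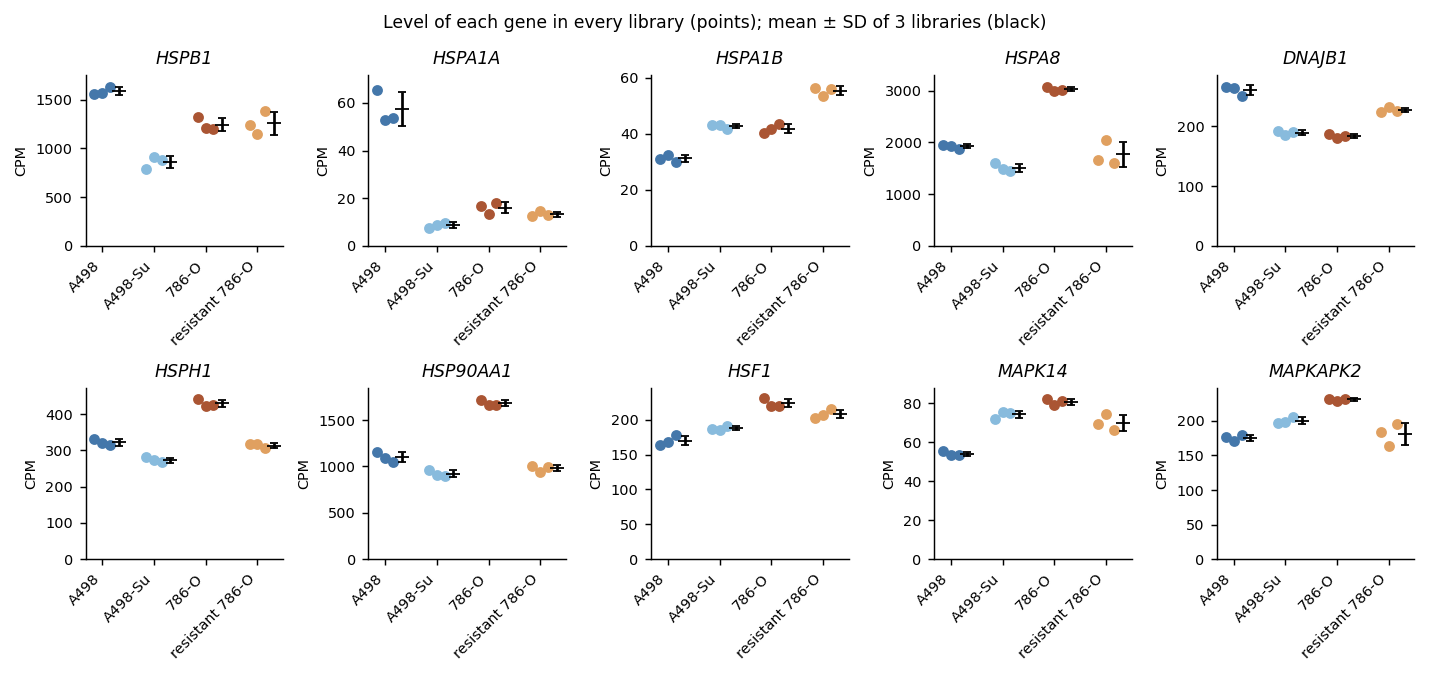
Level of the 10 genes in CPM (vertical axes, from 0) in each of the 12 libraries (points, coloured by group) with the mean ± SD of 3 libraries (black). HSPA1A lies at 52.9 to 65.5 CPM in A498 and under 18 CPM in every other library, whereas HSPB1 lies lowest in the libraries labelled A498-Su.

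The small heat shock protein gene HSPB1 (ENSG00000106211.9, chr7:76302673-76304295) was lower in the libraries labelled A498-Su than in every other group, and was not called between resistant 786-O and 786-O. It had 1561, 1574 and 1634 CPM in A498 and 793, 908 and 879 CPM in the libraries labelled A498-Su. In 786-O it had 1322, 1214 and 1202 CPM, and in resistant 786-O it had 1245, 1149 and 1382 CPM. The libraries labelled A498-Su were all below those of the other 3 groups, and the parental and resistant 786-O libraries overlapped. The log2 fold change of the libraries labelled A498-Su was -0.89 ± 0.07 (SE) over A498 (1.85-fold lower, edgeR adjusted p = 1.23e-08) and -0.53 ± 0.07 over 786-O (1.45-fold lower, edgeR adjusted p = 5.09e-06). For resistant over parental 786-O it was 0.01 (95% interval -0.13 to 0.16, edgeR adjusted p = 0.862). The 2 changes differed by -0.90 ± 0.09 (edgeR adjusted p = 6.39e-07). HSPB1 has a GC content of 64.3% in its longest transcript, the measure of GC content used for every gene here. With the trend of fold changes with GC content and length removed, the change was -0.53 in the libraries labelled A498-Su over A498. It was -0.39 in resistant over parental 786-O (edgeR adjusted p = 8.4e-06), and the difference between them was -0.13 (edgeR adjusted p = 0.113). Scaling to library size alone gave 0.16 in resistant over parental 786-O (edgeR adjusted p = 0.047).

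HSPA1A (ENSG00000204389.10, chr6:31815543-31817946) and HSPA1B (ENSG00000204388.7, chr6:31827738-31830254) both encode the inducible HSP70 and are neighbouring intronless genes. HSPA1A had 65.5, 52.9 and 53.45 CPM in A498, 7.31, 8.80 and 9.70 CPM in the libraries labelled A498-Su, 16.6, 13.6 and 17.9 CPM in 786-O, and 12.6, 14.4 and 12.8 CPM in resistant 786-O. It was highest in every A498 library and lowest in those labelled A498-Su, and the parental and resistant 786-O libraries overlapped. Its log2 fold change in the libraries labelled A498-Su was -2.74 ± 0.13 over A498 (6.68-fold lower, edgeR adjusted p = 3.6e-11), the largest change among the 10 genes, and -0.90 ± 0.13 over 786-O (edgeR adjusted p = 2.04e-05). In resistant over parental 786-O it was -0.27 ± 0.12 and missed the threshold (95% interval -0.52 to -0.02, edgeR adjusted p = 0.0504). It passed the threshold without resistant 786-O replicate 2 (-0.34, edgeR adjusted p = 0.00199), without 786-O replicate 2 (-0.38, edgeR adjusted p = 0.0109), without A498 replicate 1 (-0.28, edgeR adjusted p = 0.0345), with no filter (-0.28, edgeR adjusted p = 0.0042) and with the GC and length trend removed (-0.48, edgeR adjusted p = 0.00217).

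HSPA1B had 31.1, 32.4 and 30.1 CPM in A498, 43.2, 43.1 and 41.8 CPM in the libraries labelled A498-Su, 40.2, 41.9 and 43.6 CPM in 786-O, and 56.4, 53.5 and 56.0 CPM in resistant 786-O. Unlike HSPA1A, it was lowest in A498 and highest in resistant 786-O, and the libraries labelled A498-Su overlapped with those of 786-O. It rose by a log2 fold change of 0.46 ± 0.05 in the libraries labelled A498-Su over A498 (edgeR adjusted p = 1.4e-06) and of 0.40 ± 0.05 in resistant over parental 786-O (edgeR adjusted p = 3.87e-06). These changes differed by 0.05 (95% interval -0.10 to 0.21, edgeR adjusted p = 0.526). Over 786-O the libraries labelled A498-Su stood at 0.03 (95% interval -0.08 to 0.14, edgeR adjusted p = 0.644). With the GC and length trend removed the changes were 0.81 and 0.23 and differed by 0.58 (edgeR adjusted p = 1.52e-05), and scaling to library size alone gave 0.18 over 786-O (edgeR adjusted p = 0.00769).

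Both values are uncertain because the transcripts are 94.9% identical over 2394 aligned bases, and 72.4% of the 100-base windows of HSPA1A and 72.8% of those of HSPA1B occur in another gene, so that the counting could drop or split their reads. The windows of HSPA1A that occur in no other gene start at bases 1 to 208, 1825 to 1924 and 1975 to 2301 of its transcript of 2400 bases. Their promoters, printed above, are 94.4% identical over 249 aligned bases, and each holds 1 GAANNTTC and 1 TATAAA, which 10.7% of all promoters hold. The lncRNA ENSG00000285565 also shares 920 exon bases with HSPA1B on the same strand and is not in the count table. HSPA1A took 62.0% to 67.8% of the counts of the pair in A498, 14.5% to 18.8% in the libraries labelled A498-Su, 24.5% to 29.2% in 786-O and 18.3% to 21.3% in resistant 786-O. The exact 95% binomial interval, which covers counting error only, was 12.6% to 16.4% for the lowest of these shares and 66.2% to 69.4% for the highest. With the counts of the pair summed, the log2 fold change was -0.79 ± 0.06 in the libraries labelled A498-Su over A498 (edgeR adjusted p = 1.15e-08), 0.25 ± 0.06 in resistant over parental 786-O (edgeR adjusted p = 0.00153) and -0.17 ± 0.06 in the libraries labelled A498-Su over 786-O (edgeR adjusted p = 0.0185). The direction of HSPA1B in the first, of HSPA1A in the second and of HSPA1B in the third of these comparisons was therefore not that of the sum.

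**Figure D2:**
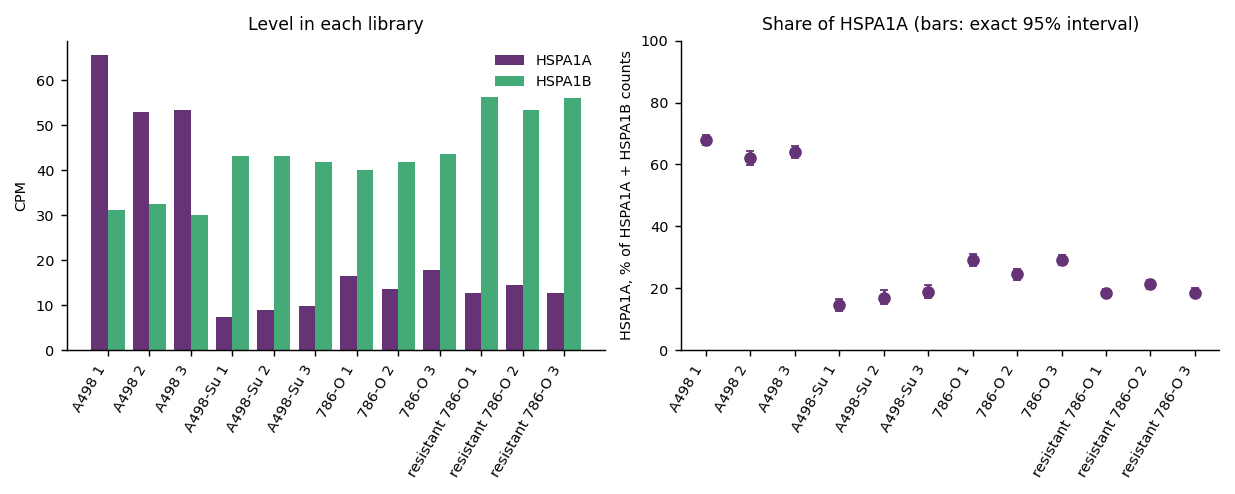
Left, level of HSPA1A and HSPA1B in CPM (bars, from 0) in each of the 12 libraries. Right, counts of HSPA1A as a percentage of the counts of both genes, with exact 95% binomial intervals, which fall at 62.0% to 67.8% in A498 and at 14.5% to 29.2% in the other libraries.

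HSPA8 (ENSG00000109971.14, chr11:123057489-123063230) encodes the constitutive HSP70, HSC70. It had 1956, 1935 and 1881 CPM in A498 and 1600.5, 1491 and 1451 CPM in the libraries labelled A498-Su. In 786-O it had 3074, 2992 and 3022 CPM, and in resistant 786-O it had 1664, 2049.6 and 1601 CPM. The 786-O libraries stood above all others, and resistant 786-O replicate 2 lay above the other resistant 786-O libraries. HSPA8 fell in resistant over parental 786-O by 0.77 ± 0.07 on the log2 scale (1.71-fold lower, edgeR adjusted p = 2.25e-07) and by 0.89 without resistant 786-O replicate 2. In the libraries labelled A498-Su it fell by 0.35 ± 0.07 over A498 (edgeR adjusted p = 0.000541) and stood at -1.0005 ± 0.073 over 786-O (edgeR adjusted p = 1.63e-08). The difference between the changes over A498 and 786-O was 0.43 ± 0.10 (edgeR adjusted p = 0.00175), and 0.24 with the GC and length trend removed (edgeR adjusted p = 0.0322).

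DNAJB1 (ENSG00000132002.8, chr19:14514769-14560391), the J protein HSP40 that delivers clients to HSP70, went in opposite directions in the 2 resistant groups. It had 266, 263 and 251 CPM in A498, 192, 185 and 190.4 CPM in the libraries labelled A498-Su, 186, 180.25 and 184 CPM in 786-O, and 224, 231 and 225 CPM in resistant 786-O. The A498 libraries were the highest, the resistant 786-O libraries came next, and those of 786-O and labelled A498-Su overlapped. DNAJB1 fell by 0.46 ± 0.04 on the log2 scale over A498 (edgeR adjusted p = 7.88e-08) and rose by 0.31 ± 0.04 in resistant over parental 786-O (edgeR adjusted p = 8.45e-06), a difference of -0.77 ± 0.06 (edgeR adjusted p = 1.62e-08). The libraries labelled A498-Su stood at 0.04 over 786-O (95% interval -0.04 to 0.13, edgeR adjusted p = 0.361). With the GC and length trend removed these values were -0.25, 0.09 (edgeR adjusted p = 0.0896), -0.33 and -0.05, and the value over 786-O passed the threshold at 0.20 with scaling to library size alone, at 0.09 with at least 10 counts required in every library and at 0.08 with the groups compared fitted alone.

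HSPH1 (ENSG00000120694.20, chr13:31134973-31162388) encodes HSP110, a nucleotide exchange factor of HSP70. It had 332, 322 and 314 CPM in A498, 281, 273 and 267 CPM in the libraries labelled A498-Su, 442, 423 and 425 CPM in 786-O, and 317, 317 and 306 CPM in resistant 786-O. As for HSPA8, 786-O was highest and the libraries labelled A498-Su lowest, while A498 and resistant 786-O overlapped. It fell by 0.24 ± 0.04 on the log2 scale in the libraries labelled A498-Su over A498 (edgeR adjusted p = 0.0001), by 0.65 ± 0.04 over 786-O (edgeR adjusted p = 3.46e-09) and by 0.46 ± 0.04 in resistant over parental 786-O (edgeR adjusted p = 1.4e-07). The difference between the changes over the 2 parental lines was 0.22 ± 0.06 (edgeR adjusted p = 0.00383). HSPH1 has the lowest GC content of the 10 genes, 39.6%, and with the GC and length trend removed the changes were -0.49 over A498 and -0.22 over 786-O in resistant 786-O, and their difference turned to -0.26 (edgeR adjusted p = 0.000544). The difference was 0.14 with scaling to library size alone and also with at least 10 counts required in every library.

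HSP90AA1 (ENSG00000080824.18, chr14:102080742-102139699) encodes the inducible HSP90 alpha, which matures kinases and other signalling proteins. It had 1157, 1091 and 1050.5 CPM in A498 and 964, 906 and 894 CPM in the libraries labelled A498-Su. In 786-O it had 1718, 1660.5 and 1665 CPM, and in resistant 786-O it had 1008, 943 and 996 CPM. The 3 786-O libraries were again above all others, and those labelled A498-Su overlapped with resistant 786-O. HSP90AA1 fell by 0.78 ± 0.05 on the log2 scale in resistant over parental 786-O (1.71-fold lower, edgeR adjusted p = 2.32e-09), by 0.26 ± 0.05 in the libraries labelled A498-Su over A498 (edgeR adjusted p = 0.000196) and by 0.87 ± 0.05 over 786-O (edgeR adjusted p = 7.83e-10). The changes over A498 and 786-O differed by 0.52 ± 0.07 (edgeR adjusted p = 6.38e-06). With the GC and length trend removed the change over A498 was -0.42 and the difference 0.31. The pseudogene HSP90AA2P had 236 to 863 counts per library, and the 5 pseudogene rows of HSP90AA1 together came to 0.931% to 1.57% of its counts.

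**Figure D3:**
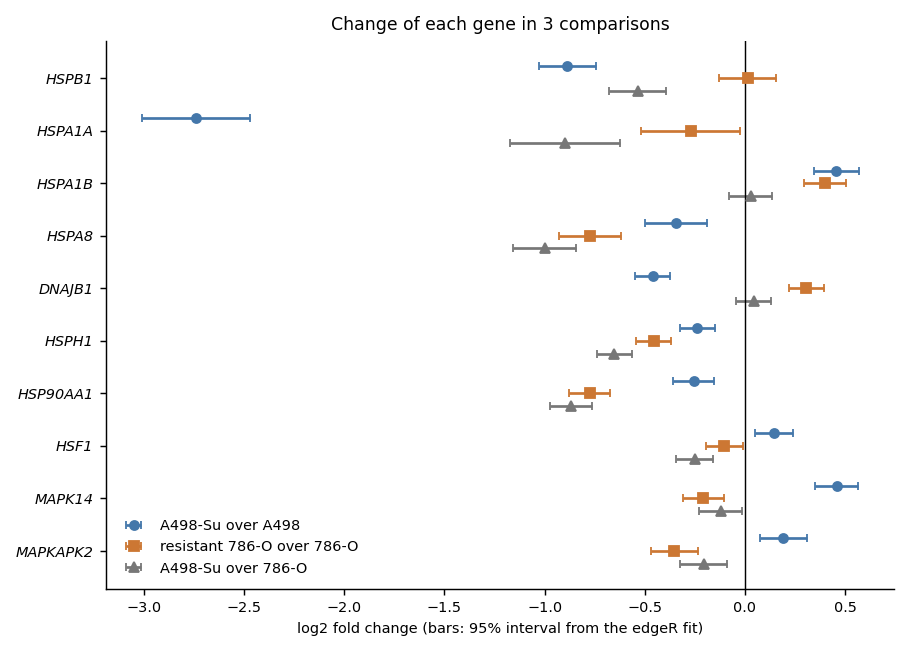
Log2 fold change of the 10 genes (points) with the 95% interval of the edgeR fit (bars) in the libraries labelled A498-Su over A498 (circles), resistant over parental 786-O (squares) and the libraries labelled A498-Su over 786-O (triangles). HSPA8, HSPH1 and HSP90AA1 lie below 0 in all 3 comparisons, HSPA1A reaches -2.74, and MAPK14 lies at 0.46, -0.21 and -0.12.

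HSF1 (ENSG00000185122.11, chr8:144291591-144314720), the transcription factor of the heat shock response, differed little between the groups. It had 164, 169 and 177 CPM in A498, 187, 186 and 191 CPM in the libraries labelled A498-Su, 231, 220.2 and 220.3 CPM in 786-O, and 203, 207 and 215 CPM in resistant 786-O. The libraries of no 2 groups overlapped, with the order A498, A498-Su, resistant 786-O and 786-O from low to high. The log2 fold change was 0.14 ± 0.04 in the libraries labelled A498-Su over A498 (edgeR adjusted p = 0.00863), -0.25 ± 0.04 over 786-O (edgeR adjusted p = 0.000141) and -0.10 ± 0.04 in resistant over parental 786-O (edgeR adjusted p = 0.0481). The last of these missed the threshold under 17 of 23 alternatives, among them scaling to library size alone, where it was 0.04, and without A498 replicate 2, any library labelled A498-Su, any 786-O library or resistant 786-O replicate 1 or 3, where it was -0.06 to -0.12. HSF1 has a GC content of 64.7%, and with the GC and length trend removed the changes were 0.49, -0.46 and -0.60, and the difference between the changes over A498 and 786-O, 0.25 ± 0.06 (edgeR adjusted p = 0.00252), became 1.08.

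MAPK14 (ENSG00000112062.10, chr6:36027782-36111236), which encodes p38 alpha, was lowest in A498 and differed less among the other groups. It had 55.3, 53.3 and 53.5 CPM in A498, 72.1, 75.6 and 74.96 CPM in the libraries labelled A498-Su, 82.1, 79.1 and 80.9 CPM in 786-O, and 69.4, 74.2 and 66.1 CPM in resistant 786-O. The A498 libraries were below all others, and those labelled A498-Su overlapped with resistant 786-O. The log2 fold change was 0.46 ± 0.05 in the libraries labelled A498-Su over A498 (1.37-fold higher, edgeR adjusted p = 8.99e-07) and -0.21 ± 0.05 in resistant over parental 786-O (1.15-fold lower, edgeR adjusted p = 0.00151), a difference of 0.66 ± 0.07 (edgeR adjusted p = 6.86e-07). Over 786-O the libraries labelled A498-Su stood at -0.12 ± 0.05 (edgeR adjusted p = 0.0429). That value missed the threshold under 15 of 23 alternatives, among them leaving out any library labelled A498-Su, any 786-O library or resistant 786-O replicate 1 or 3, where it was -0.08 to -0.14. Scaling to library size alone gave 0.03 for it and -0.06 in resistant over parental 786-O (edgeR adjusted p = 0.233), and the change over A498 was 0.29 with the GC and length trend removed.

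MAPKAPK2 (ENSG00000162889.10, chr1:206684905-206734281), the kinase between p38 and HSP27, followed the same directions as MAPK14. It had 176, 171 and 179 CPM in A498, 197, 198 and 206 CPM in the libraries labelled A498-Su, 232, 229 and 232 CPM in 786-O, and 183.5, 164 and 195 CPM in resistant 786-O. The 786-O libraries were the highest, and A498 overlapped with resistant 786-O, in which replicate 2 was the lowest. The log2 fold change was 0.19 ± 0.05 in the libraries labelled A498-Su over A498 (edgeR adjusted p = 0.00586) and -0.35 ± 0.05 in resistant over parental 786-O (edgeR adjusted p = 3.98e-05), a difference of 0.54 ± 0.08 (edgeR adjusted p = 1.69e-05). The libraries labelled A498-Su stood at -0.21 ± 0.05 over 786-O (edgeR adjusted p = 0.00408), which was -0.05 with scaling to library size alone (edgeR adjusted p = 0.413). The change in resistant 786-O was -0.21 under that scaling and -0.57 with the GC and length trend removed, which gave 0.50 over A498 and a difference of 1.08.

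The difference between the changes over A498 and over 786-O was called for 9 of the 10 genes, 6 with a positive and 3 with a negative difference and HSPA1B the exception, where 68.3% of all genes were called (33.9% positive and 34.4% negative). In a direct comparison, the libraries labelled A498-Su were lower than resistant 786-O in 7 genes, higher in MAPKAPK2 and not called for HSP90AA1 and MAPK14, where 46.1% of all genes were called (23% in each direction). Leaving out each library in turn gave 5 to 9 genes, with 5 without A498-Su replicate 2. The share of all genes called was not computed for these fits. The parental lines themselves differed in all 10 genes, with 7 higher in 786-O and HSPB1, HSPA1A and DNAJB1 higher in A498, where 74.2% of all genes were called (38.2% higher and 36.1% lower). HSPA8, for example, was 1.57-fold and HSP90AA1 1.53-fold higher in 786-O, and HSPA1A 3.59-fold lower. Between resistant 786-O and A498, 3 genes were higher and 4 lower in resistant 786-O, where 74.2% of all genes were called (37.8% higher and 36.4% lower). The threshold was missed by HSPA8 (95% interval of the log2 difference -0.27 to 0.04), HSPH1 (-0.13 to 0.05) and MAPKAPK2 (-0.07 to 0.16). In these 3 comparisons the libraries of the groups did not overlap for 8, 10 and 7 of the genes, where this held for 51.7%, 80.2% and 73.3% of all genes.

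Per length, HSPB1 had the highest level of the 10 genes in each group, with a mean of 979, 530, 768 and 775 CPM per kb of exons in A498, in the libraries labelled A498-Su, in 786-O and in resistant 786-O. HSPA8 had 397, 312, 625 and 365 CPM per kb and HSP90AA1 216, 181, 330 and 193 CPM per kb, while MAPK14 had 7.9997 to 11.95 CPM per kb and HSPA1A 3.58 to 23.8 CPM per kb over the 4 groups. The lengths are those of all annotated exons of a gene merged, 8188 bases for DNAJB1 and 8391 bases for HSPH1, so that genes with many or long rare exons read too low on this scale. In every group the HSPB1 libraries were above those of HSPA8 on it.

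The 7 chaperone genes HSPB1, HSPA1A, HSPA1B, HSPA8, DNAJB1, HSPH1 and HSP90AA1 together took 5284 ± 79 CPM (SD, n = 3) in A498, 3809 ± 74 CPM in the libraries labelled A498-Su, 6628 ± 150 CPM in 786-O and 4621 ± 121 CPM in resistant 786-O. The sum in each parental library was above that in each resistant library. Of these counts, HSPB1 made up 29.1% to 31.3% in A498, 20.4% to 23.8% in the libraries labelled A498-Su, 18.3% to 19.4% in 786-O and 24.1% to 30.2% in resistant 786-O. The share of HSPB1 was thus lower in the libraries labelled A498-Su than in A498 and higher in resistant 786-O than in 786-O, without overlap in either pair, whereas the CPM of HSPB1 overlapped between resistant 786-O and 786-O. The count ratio of HSPB1 to HSPA8 was 0.398 to 0.430 in 786-O and 0.560 to 0.863 in resistant 786-O, and 0.798 to 0.868 in A498 and 0.495 to 0.609 in the libraries labelled A498-Su. These are shares of counts and not of molecules, since the genes differ in length, and they were not tested.

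**Figure D4:**
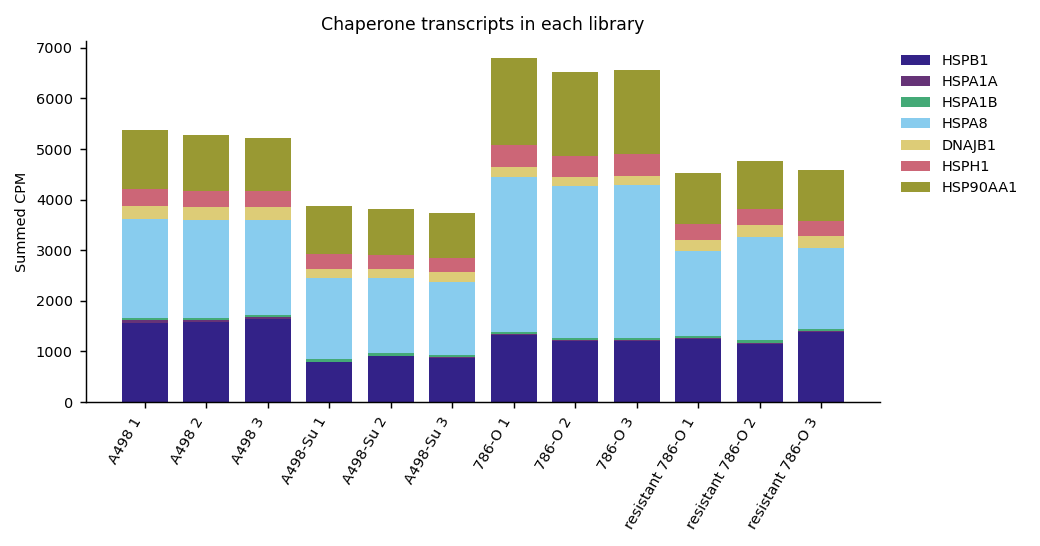
Summed CPM (bars, from 0) of 7 chaperone genes in each of the 12 libraries, stacked by gene. The sums are 5214 to 5369 in A498, 3733 to 3881 in the libraries labelled A498-Su, 6525 to 6800 in 786-O and 4527 to 4758 in resistant 786-O, with most of the difference between 786-O and resistant 786-O in HSPA8 and HSP90AA1.

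Around these 10 genes, 105 further genes of the chaperone network and of the p38 cascade were listed by function in 11 lists, of which 98 were tested. HSPB2, HSPB3, HSPB7, HSPB9, CRYAA and LSP1 had at most 15 counts in any library, and HSPB11 was not matched by symbol. In resistant over parental 786-O, 59 of the 98 were lower and 21 higher, with a median log2 fold change of -0.31 against 0.03 for all genes. Over A498, the libraries labelled A498-Su had 35 higher and 42 lower, with a median of -0.08, and over 786-O 20 higher and 59 lower, with a median of -0.27. Between the parental lines, 48 of the 98 were higher and 33 lower in 786-O than in A498. The shares of all genes called in each direction are those given above.

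Among the other small heat shock protein genes, CRYAB, which encodes alpha B crystallin, had 92.0 ± 2.5 CPM in A498 and 4.93 ± 0.27 CPM in the libraries labelled A498-Su (log2 fold change -4.22 ± 0.21, edgeR adjusted p = 7.66e-11), and 1.37 ± 0.071 CPM in 786-O. HSPB8, whose product works with BAG3 in the removal of damaged proteins, rose by 0.23 on the log2 scale in the libraries labelled A498-Su over A498 and by 0.31 in resistant over parental 786-O. Of 9 small heat shock protein genes listed besides HSPB1, 3 were tested. All 3 were called higher in resistant 786-O than in 786-O, where 35% of all genes were. Only HSPB8 among them had both non-overlapping libraries and at least 5 CPM in the higher group in this comparison. The count therefore rests in part on genes that missed these conditions. Among the HSP70 genes, HSPA2 fell from 13.3 ± 0.21 to 3.73 ± 0.57 CPM in the libraries labelled A498-Su over A498 (log2 fold change -1.83), and HSPA4L, an HSP110 relative, fell from 60.1 ± 1.5 to 34.1 ± 5.8 CPM in resistant over parental 786-O (-0.82). HSPA6, a strictly inducible HSP70 gene named here after its values were seen, was at 2.42 ± 0.18 CPM in A498 and at a mean under 1 CPM in each other group.

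Of 11 J protein genes, 7 were lower and 1 higher in resistant over parental 786-O, and 5 lower and 3 higher over A498. DNAJA1 and DNAJA2, which serve cytosolic HSP70, fell in both comparisons, by 0.65 and 0.80 on the log2 scale over A498 and by 0.56 and 0.64 in resistant 786-O. DNAJB2 rose in both, by 0.79 and 0.48, whereas DNAJC21 and DNAJC8 rose over A498, by 0.59 and 0.76, and fell in resistant 786-O, by 0.54 and 0.43. Of 9 nucleotide exchange factors and helpers of HSP70, 7 were lower in resistant 786-O and none was higher. BAG3, an HSF1 target and partner of HSPB8, fell by 0.86 on the log2 scale over A498 (179 ± 3.7 to 98.7 ± 1.2 CPM) and stood at 0.05 in resistant 786-O (edgeR adjusted p = 0.361). STUB1, the ubiquitin ligase CHIP, fell by 0.79 and 0.27 in these comparisons, and BAG2, which inhibits CHIP, rose by 0.33 over A498 and fell by 0.78 in resistant 786-O.

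Among 12 genes of HSP90 and its co-chaperones, 10 were lower and 1 higher in resistant over parental 786-O, with a median log2 fold change of -0.63, and 10 were lower and none higher in the libraries labelled A498-Su over 786-O. PTGES3, the co-chaperone p23, fell from 608 ± 4.7 to 272 ± 25 CPM in resistant 786-O (-1.16 ± 0.06, edgeR adjusted p = 4.17e-10), PPID, cyclophilin 40, from 70.5 ± 1.9 to 32.4 ± 1.6 CPM (-1.12), and FKBP4, the immunophilin FKBP52, from 392 ± 7.7 to 199.99 ± 8.91 CPM (-0.97). Over A498, 6 of the 12 were lower and 4 higher in the libraries labelled A498-Su, and FKBP4 and STIP1, which links HSP70 to HSP90, rose by 0.38 and 0.40. The constitutive HSP90 gene HSP90AB1, named here after its values were seen, fell by 0.57 in resistant 786-O and stood at 0.06 over A498 (edgeR adjusted p = 0.271).

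All 8 subunit genes of the chaperonin TRiC, which folds actin and tubulin, were lower in resistant 786-O than in 786-O, with log2 fold changes of -0.37 to -0.78, and all 8 were lower in the libraries labelled A498-Su than in 786-O. Over A498, 6 were lower, CCT5 stood at 0.03 (edgeR adjusted p = 0.528) and TCP1 rose by 0.37. The mitochondrial chaperonin genes HSPD1 and HSPE1, which share a promoter region and are HSF1 targets, fell by 0.998 and 1.10 in resistant 786-O. Over A498, HSPD1 fell by 0.18 and HSPE1 stood at -0.01 (edgeR adjusted p = 0.85). SERPINH1, the collagen chaperone HSP47, fell from 529 ± 6.6 to 116 ± 6.2 CPM in the libraries labelled A498-Su over A498 (-2.19 ± 0.08, edgeR adjusted p = 2.48e-12), and 786-O had 128 ± 6.6 CPM. HSF4 fell by 2.43 over A498, HSF2 rose by 0.62, and neither was called in resistant 786-O.

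**Figure D5:**
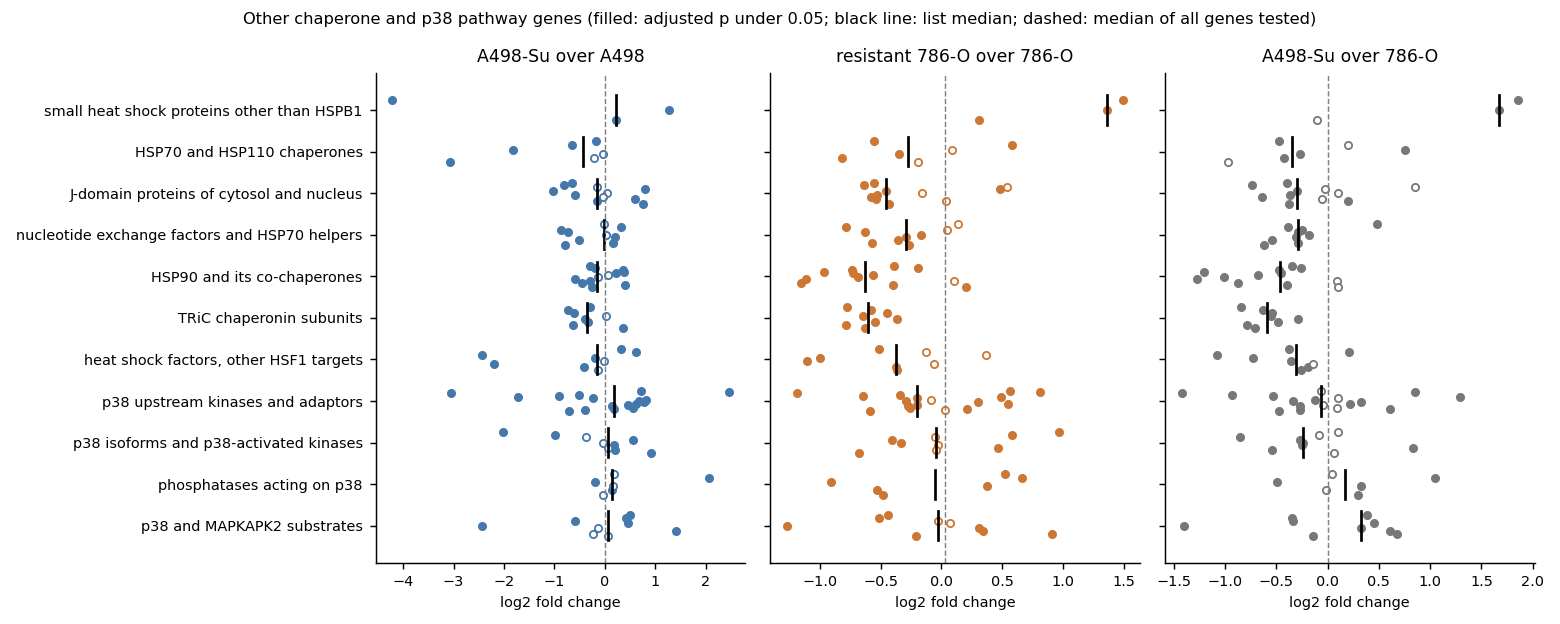
Log2 fold change of 98 chaperone and p38 pathway genes (points, filled where the adjusted p is under 0.05) in 11 lists, with the median of each list (black line) and of all genes tested (dashed), in the comparison named above each panel, each with its own horizontal scale. All 8 TRiC subunits lie below 0 in resistant over parental 786-O, at -0.37 to -0.78, and CRYAB lies at -4.22 in the libraries labelled A498-Su over A498.

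Upstream of p38, 10 of 17 kinase and adaptor genes were higher and 7 lower in the libraries labelled A498-Su over A498, and 6 were higher and 9 lower in resistant over parental 786-O. GADD45B, an adaptor of the kinase MAP3K4, rose from 24.6 ± 0.22 to 135 ± 1.5 CPM over A498 (2.46 ± 0.05, edgeR adjusted p = 4.97e-15) and from 74.7 ± 3.5 to 131 ± 5.1 CPM in resistant over parental 786-O (0.81 ± 0.05, edgeR adjusted p = 1.05e-09). GADD45A rose by 0.72 and 0.56. MAP2K6, which phosphorylates p38, fell from 25.4 ± 1.3 to 7.68 ± 0.68 CPM over A498 (-1.72), and MAP2K4 fell by 0.91 and 0.65 in the 2 comparisons.

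MAPK11 and MAPK12 moved in the opposite directions to MAPK14. MAPK11, p38 beta, fell from 56.7 ± 2.1 to 14.1 ± 1.1 CPM over A498 (-2.01 ± 0.07, edgeR adjusted p = 1.81e-12) and rose from 13.1 ± 0.54 to 25.7 ± 1.6 CPM in resistant 786-O (0.97 ± 0.07, edgeR adjusted p = 9.96e-09). MAPK12, p38 gamma, fell by 0.99 and rose by 0.58 in the same comparisons, while neither gene was called in the libraries labelled A498-Su over 786-O. Of the kinases that p38 activates, MAPKAPK3, a close relative of MAPKAPK2, rose by 0.55 over A498 and fell by 0.41 in resistant 786-O, and RPS6KA5, which encodes MSK1, rose by 0.91 and fell by 0.68. DUSP10, a phosphatase that inactivates p38 and JNK, rose in both comparisons, by 2.06 (16.5 ± 1.5 to 68.5 ± 0.69 CPM) and by 0.66, and DUSP16 fell in both, by 0.20 and 0.91. Of 9 substrate genes tested, MEF2C fell by 2.43 over A498. Its value of -1.27 in resistant 786-O did not meet all conditions for naming, which were a call, non-overlapping libraries and at least 5 CPM in the higher group. ZFP36, which encodes the mRNA decay factor TTP, rose by 0.91 in resistant 786-O and stood at -0.23 over A498 (edgeR adjusted p = 0.0597).

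The genes whose level followed that of HSPB1 most closely over the 12 libraries, among the 10084 genes that averaged 10 CPM or more, were KRBA1, BCAR1 and UNKL, with a root mean square difference of centred log2 CPM of 0.067, 0.077 and 0.084. BCAR1 had means of 288, 164, 221 and 237 CPM in A498, in the libraries labelled A498-Su, in 786-O and in resistant 786-O. For MAPK14 they were TMEM165, RPL36 and CNN3, at 0.034, 0.045 and 0.052. The pooled SD of replicates was 0.094 for HSPB1, within which 7 genes fell, and 0.050 for MAPK14, within which 2 genes fell. With 4 groups of 3 libraries, the likeness reflects 4 group means and the spread around them, and over the group means alone 1 and 0 of the 3 genes were among the nearest 3.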

How the data were processed

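The authors deposited raw counts, whole numbers not normalized in any way. By the study's methods, paired reads of stranded mRNA libraries were trimmed with Trimmomatic 0.36.6, aligned to GRCh38 with HISAT2 2.1.0 and counted on GENCODE release 33 exons by strand with featureCounts 1.6.3. The methods give the strand setting 1 and a minimum mapping quality of 12 for counting. Reads shared by near-identical genes such as HSPA1A and HSPA1B could thus be dropped or split, and the sum of the pair need not recover them. Exons of genes on the opposite strand overlap DNAJB1 (TECR, 525 bases), HSPA8 (ENSG00000288061, 555 bases), HSP90AA1 (WDR20, 197 bases) and HSF1 (DGAT1, 137 bases). The part of these overlaps in the counts was not tested. Each library was matched to its group by its label. Genes were filtered with filterByExpr, scaled by TMM and fitted in 1 quasi-likelihood model of 12 libraries with 4 group means in edgeR 4.0.16 (R 4.3.3). The Benjamini-Hochberg adjustment covered 19929 genes, with a threshold of 0.05, and SEs were derived from the F statistic. CPM are counts per 1e+06 counts of the TMM-scaled library size. The code was tested on simulated counts. Positions are from GENCODE release 44, promoters from RefSeq (GRCh38.p14).

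The 10 genes and the 11 lists were chosen with earlier results of these data known. All 10 genes were named. From each list, up to 4 genes per resistance comparison were eligible, those with the largest called changes, non-overlapping libraries and at least 5 CPM in the higher group. The 3 genes nearest to HSPB1 and to MAPK14 were added, pseudogenes of a member with at least 10 counts and HIF1A. Alternatives were library size scaling, DESeq2 1.42.0 size factors and Wald test, no filter, at least 10 counts in every library, a minimum log2 change of 0.5, the compared groups alone, a replicate block, removal of the GC and length trend, thinning, pseudogene rows added, HSPA1A and HSPA1B summed, 786-O in place of A498 for the libraries labelled A498-Su, the unequal-variance test that the study's methods apply to gene counts, run here on log2 CPM without adjustment, and each replicate left out. Immunoblot and viability data were not used here.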

Additional observations from a re-analysis of the deposited data

Results flagged for a closer look

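The change over the parental line differed between the 2 comparisons for 9 of the 10 genes by the test of the difference itself (the change in the libraries labelled A498-Su over A498 less that of resistant over parental 786-O). On the log2 scale the difference was -0.9 for HSPB1, -2.47 for HSPA1A and -0.77 for DNAJB1, where the first comparison gave the lower change. It was 0.43 for HSPA8, 0.22 for HSPH1, 0.52 for HSP90AA1, 0.25 for HSF1, 0.66 for MAPK14 and 0.54 for MAPKAPK2. DNAJB1, HSF1, MAPK14 and MAPKAPK2 moved in opposite directions in the 2 comparisons, with the change of HSF1 in resistant 786-O lost under 17 of 23 alternatives. With the GC and length trend removed, the rise of DNAJB1 in resistant 786-O was not called (0.09, edgeR adjusted p = 0.0896), nor was the HSPB1 difference (-0.13, edgeR adjusted p = 0.113), and the HSPH1 difference turned to -0.26 (edgeR adjusted p = 0.000544). With library size scaling, MAPK14 in resistant 786-O was not called (-0.06, edgeR adjusted p = 0.233). Set against 786-O in place of A498, the libraries labelled A498-Su gave a fall for HSF1, MAPK14 and MAPKAPK2, as in resistant 786-O, and DNAJB1 was not called. Of the 98 list genes tested, the difference was called for 73. Since 68.3% of all genes had such a difference and the libraries labelled A498-Su were nearer to 786-O than to A498, these values describe the libraries as labelled.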

How the results depend on the processing

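Requiring an absolute log2 fold change over 0.5 left 2, 2 and 5 of the 10 genes called in A498-Su over A498, resistant over parental 786-O and A498-Su over 786-O, and 5, 2 and 2 in 786-O over A498, A498-Su over resistant 786-O and resistant 786-O over A498. It left 43, 45 and 33 list genes in the first 3 comparisons, and 8799 and 7970 of all genes in the second and the third. The median absolute log2 fold change of all genes was 0.61 in A498-Su over A498, above the 0.5 required. It was 0.62, 0.30 and 0.59 in 786-O over A498, A498-Su over resistant 786-O and resistant 786-O over A498. A median is not a share of genes called. That share at 0.5 is not given for these comparisons or for A498-Su over A498, so their counts have no background here. Leaving out each replicate in turn gave 5 to 9 of the 10 genes for A498-Su over resistant 786-O, with 5 without A498-Su replicate 2. No other count of called genes moved by over 1.5 times under any alternative. Of all values for single genes and alternatives, 865 kept their direction and their side of the threshold, 39 lost and 13 gained a call, and 27 turned. With library size scaling, HSF1 in resistant over parental 786-O was 0.0404, the HSPA1B difference -0.0209 and MAPK14 in A498-Su over 786-O 0.03, and with at least 10 counts in every library the HSPA1B difference was -0.0278. With the GC and length trend removed, HSPB1 in resistant over parental 786-O was -0.3947, the HSPH1 difference -0.262 and DNAJB1 in A498-Su over 786-O -0.0472. Leaving out each replicate in turn gave -0.0368 to 0.0734 for HSPB1 in resistant over parental 786-O and -0.0039 to 0.0683 for HSPA1B in A498-Su over 786-O, neither called. Setting the libraries labelled A498-Su against 786-O in place of A498, their change was 0.0442 for DNAJB1, -0.2515 for HSF1, -0.1215 for MAPK14 and -0.2056 for MAPKAPK2, and the difference was -0.3728 for HSPA1B, -0.2266 for HSPA8, -0.1958 for HSPH1, -0.0926 for HSP90AA1 and -0.1485 for HSF1. With HSPA1A and HSPA1B summed, the pair gave -0.7873 in A498-Su over A498, 0.2452 in resistant over parental 786-O, -1.0325 as the difference and -0.1737 in A498-Su over 786-O. The genes nearest to HSPB1 and MAPK14 over the group means shared 1 and 0 of 3. The causes were not tested.

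With the replicate number as a block, HSF1 in resistant over parental 786-O was no longer called (edgeR adjusted p = 0.0524). Nor was MAPK14 in A498-Su over 786-O (edgeR adjusted p = 0.0559). No other call among the 10 genes was lost in A498-Su over A498, resistant over parental 786-O, their difference or A498-Su over 786-O. The block with the GC and length trend removed gave -0.3955, -0.2624 and -0.0473 for the values that turned without the block. Replicates of the same number did not deviate together (correlations of -0.086 to 0.017), and 4 of 12 libraries correlated best with their own number. These values cannot show whether such replicates share more than the number, which is not stated. With 20042519 to 47972092 counts per library, the depth limits HSPA1A most among the 10 genes, at 184 to 248 counts in the libraries labelled A498-Su.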
